A study of Mus musculus with 74 samples.

Results

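The alkaline phosphatase genes Akp3, Alpi and Alpl are described here across 15 groups of mouse gut epithelium libraries. The 3 genes were taken as named rows of the deposited count table, 3 of its 24015 genes, and were chosen by their names with their measured levels in these groups already known, so every value of theirs is a description and carries no test. The libraries came from a study of the transcription factor Cdx2 in the developing and adult intestine. RNA from 31 of the series' 74 samples was used. The remaining samples are not analysed here.

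Wild-type (WT) embryos were CD1 mice. Epithelium of the forestomach (FS), hindstomach (HS) and small intestine (SI) was taken at E12, E14 and E16, and of the small intestine also at E18, with 2 libraries per group. Embryos with Cdx2 deletion were on a B6;129 mixed background, so strain and genotype cannot be told apart in any embryonic comparison with WT. The group labelled deleted at E10 carried Cdx2f/f with Shh-Cre, received no treatment and was collected at E16 (3 libraries). The groups labelled deleted at E13 (collected at E16) and at E15 (collected at E18) carried Cdx2f/f with Villin-Cre and had an oral gavage of 5 mg tamoxifen (2 libraries each). Shh is active in the embryonic gut endoderm and Villin in the intestinal epithelium. In adults both groups were Cdx2f/f on the B6;129 mixed background, from the distal part of the intestine (ileum). Adult controls were injected with sunflower oil for 5 days, and adults labelled Cdx2-/- also carried Villin-Cre and were injected with 1 mg tamoxifen for 5 days (2 libraries each). Cells up to E16, including those of the groups labelled deleted at E10 and E13, were released with trypsin and sorted for Epcam. E18 and adult epithelium was released as villi with 5 mM EDTA, so stage and preparation cannot be told apart between E16 and E18.

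Alkaline phosphatases are ectoenzymes tethered to the outer cell membrane by a glycosylphosphatidylinositol (GPI) anchor, and they remove phosphate groups from many substrates. Alpi and Akp3 encode close intestinal paralogs that sit on the brush border of enterocytes, where intestinal alkaline phosphatase is known for removing phosphate from bacterial lipopolysaccharide and nucleotides. Akp3 is known as the duodenal form and Alpi as the form found along the intestine. Alppl2, the embryonic form, lies in the same gene cluster. Alpl encodes the tissue-nonspecific enzyme, known for splitting pyrophosphate in bone and for dephosphorylating vitamin B6 compounds, and is also a classic stain for primordial germ cells.

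The 250 bases upstream of the RefSeq start of the paralogs are shown because their counts were high in the same libraries. The sequences are from the RefSeq promoter table (GRCm38.p6), whose build differs from the mm9 build named for the deposited files. The Akp3 window is chr1:87124704-87124953 on the plus strand and the Alpi window is chr1:87101607-87101856 on the minus strand. Each is written 5′ to 3′, and capitals mark identical runs of at least 12 bases shared by both.
Akp3: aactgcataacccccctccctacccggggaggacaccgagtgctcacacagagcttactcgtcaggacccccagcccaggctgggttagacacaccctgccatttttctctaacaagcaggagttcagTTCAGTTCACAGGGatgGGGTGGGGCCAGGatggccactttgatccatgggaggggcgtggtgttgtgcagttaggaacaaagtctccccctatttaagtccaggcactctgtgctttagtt
Alpi: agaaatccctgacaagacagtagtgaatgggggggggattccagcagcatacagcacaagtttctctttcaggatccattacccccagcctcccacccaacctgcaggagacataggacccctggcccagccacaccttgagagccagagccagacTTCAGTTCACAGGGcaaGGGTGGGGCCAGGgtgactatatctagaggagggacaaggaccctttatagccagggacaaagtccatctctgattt
The windows shared 2 such runs. One, TTCAGTTCACAGGG, began at position -122 in Akp3 and -94 in Alpi, counted from the start, and was found in 2 of 32851 RefSeq windows of this length, read on both strands. The other, GGGTGGGGCCAGG, began at -105 and -77 and was in 15 of those windows. The 2 windows with the first run were those of Akp3 and Alpi themselves, and the 15 included both. These runs were picked after the sequences were seen, as runs that both windows hold, so neither count could be below 2. Short motifs of factors known at intestinal genes were also searched on both strands. The Cdx-type motif TTTAT was found 1 time in the Alpi window and 0 times in the Akp3 window, against 37.3% of all windows with a match. The Hnf4-type motif CAAAG was found 2 times in Akp3 and 1 time in Alpi (48.6% of windows), and the Klf-type motif CCACCC 1 time in Akp3 and 2 times in Alpi (28.1%); 1 match in each gene lay within the second shared run. The Gata-type motif AGATAA was in neither (9.99%). A match is a description of letters and not a bound site.

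The libraries held 5970227 to 62463167 counts each (median 21910062). Levels are given as CPM, read counts scaled to library depth with one trimmed-mean factor set over all 31 libraries, and 3 counts, taken as the limit that a count of 0 allows, came to between 0.0388 and 0.445 CPM. Intervals and limits cover counting error only. No source says that replicates were separate animals, so SD and p measure the spread between these libraries, which may be technical. Because the files hold no transcript lengths, levels are compared within a gene and not between genes. How reads shared by Akp3, Alpi and Alppl2 were assigned is not given in the sources used here, so the split among these related genes is uncertain.

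In several libraries the Cdx2 counts over the whole gene, or some region markers, went against the label. Cdx2 stood at 184 and 204 CPM in WT E16 small intestine and at 16.8, 14 and 26.7 CPM in the group labelled deleted at E10, lower in all 3 libraries (log2 -3.40, SE 0.27; adjusted p = 3.0e-09 by edgeR). Its level was 197 and 202 CPM in the libraries labelled deleted at E13 (log2 0.05 ± 0.28 against WT E16, edgeR adjusted p = 0.905). The libraries labelled deleted at E15 had 359 and 343 CPM against 186 and 193 CPM in WT E18, and adults labelled Cdx2-/- had 729 and 698 CPM against 340 and 346 CPM. Cdx2 was thus higher in the last 2 comparisons (log2 0.90 ± 0.28, edgeR adjusted p = 0.0206, and 0.93 ± 0.12, adjusted p = 0.00731). Counts per gene do not show whether the reads came from a deleted exon, and whether labels or columns were exchanged was not tested. All values below belong to the libraries as labelled, those with the E13 label above all, where Cdx2 was at the WT level and duodenal genes were very high (given below). The E12 stomach libraries also departed from their labels in some region markers and not in others. Gata4, a factor of the stomach and proximal intestine, was at 0.351 to 0.538 CPM in the libraries labelled E12 hindstomach and at 259 to 264 CPM in those labelled E12 forestomach, while Cdx2 was 131 ± 29.1 (SD, n = 2) in the former and 2.13 ± 0.122 (SD, n = 2) in the latter. At E14 Gata4 was 320 to 337 CPM in hindstomach and 52.8 to 55.1 CPM in forestomach. The squamous stomach markers summed to 15.1 to 17.7 CPM in E12 forestomach and 4.47 to 6.05 CPM in E12 hindstomach, the order of the labels. The glandular stomach markers summed to 12.1 to 14.3 and 0.0566 to 0.38 CPM, against that order. Ileal genes summed to 1.03 to 2.45 CPM in E12 forestomach, 20.5 to 21.5 in E12 hindstomach and 25.7 to 27.8 in E12 small intestine. All groups carried the 5 epithelial markers (Epcam, Cdh1, Krt8, Krt18, Krt19) above 3 counts in every library, although the 10 mesenchyme and muscle markers summed to 19500 to 24400 CPM in E16 forestomach, 6590 to 6850 in E16 hindstomach and 1310 to 1440 in E16 small intestine, against at most 284 in the other groups.

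**Figure D1:**
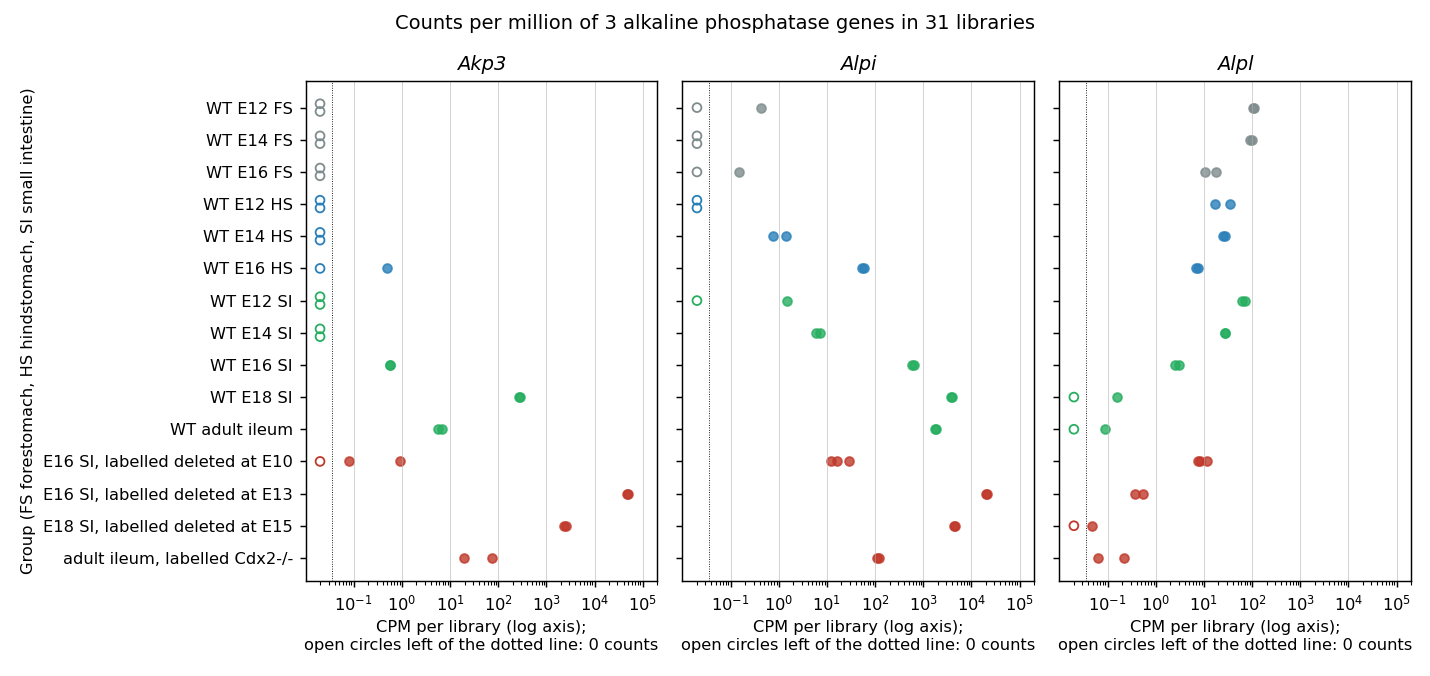
CPM of Akp3, Alpi and Alpl (log axis) in each of 31 libraries, by group. Each point is a library, green, blue and grey for WT small intestine or ileum, hindstomach and forestomach and red for libraries labelled Cdx2-deleted, and open circles stand for libraries with 0 counts. Akp3 and Alpi are highest in the libraries labelled deleted at E13 and Alpl in E12 forestomach.

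Alpi counts appeared early in the small intestine and climbed with stage. At E12 one library had 0 counts and the other 48 (1.45 CPM). At E14 the libraries stood at 7.25 and 6.00 CPM, at E16 at 634 and 577 CPM, and at E18 at 3820 and 3970 CPM. Each stage from E14 lay wholly above the one before. The log2 fold change was 6.52 ± 0.63 (SE) from E14 to E16 and 2.69 ± 0.52 from E16 to E18. Enterocyte markers rose over the same steps, 5 of 5 in each, with sums of 349 to 385 CPM at E14, 9310 to 9710 at E16 and 48800 to 49500 at E18. So did 12 of 18 other brush border hydrolases from E14 to E16 and 17 of 18 from E16 to E18, with 0 lower in either step. From E16 to E18 all 10 mesenchyme and muscle markers fell, as did 2 of 2 blood markers tested. What share these cells had in the Alpi levels was not tested. By read count, with no correction for length, Alpi ranked 147 and 169 among all genes in the E16 libraries and 27 and 25 at E18. In all genes tested (17239), 13.7% were called higher from E14 to E16, out of 25.6% called in either direction, and 20.1% higher from E16 to E18, out of 42.1% (edgeR adjusted p under 0.05 and an absolute log2 fold change of at least 1). A lower count of a gene can mean fewer cells of a type or less RNA per cell, which cannot be told apart in bulk libraries.

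The hindstomach also carried Alpi, at lower levels. It had 0 counts in both libraries labelled E12 hindstomach, 0.766 and 1.39 CPM at E14, and 54.5 and 57.5 CPM at E16 (log2 5.70 ± 0.66 from E14 to E16). Some region markers went against the E12 stomach labels, as given above, which also bears on the E12 forestomach counts below. Small intestine at E16 exceeded hindstomach by 3.44 ± 0.54 (SE) on the log2 scale, in a comparison in which 25.7% of genes were called and 8.1% were higher in small intestine. In forestomach Alpi had 0 and 17 counts at E12, 0 and 0 at E14, and 1 and 0 at E16, so it was not above the 3-count limit in 5 of 6 libraries. The gastric counts at E16 came with intestinal markers at low level, as the 5 enterocyte markers (Vil1, Fabp1, Fabp2, Apoa1, Apoa4) summed to 403 to 420 CPM in hindstomach, 9310 to 9710 in small intestine and 18 to 19.4 in forestomach. The part of these cells in the result was not tested.

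Akp3 came on later. All 6 small intestine and stomach groups at E12 and E14 had 0 counts of it, as did E16 forestomach. In E16 small intestine it had 12 and 11 counts (0.567 and 0.563 CPM), at least 5.05-fold above the limit set by 0 counts at E14. One E16 hindstomach library had 12 counts and the other 0. At E18 the small intestine had 273 and 279 CPM, a log2 difference of 8.93 ± 0.59 (SE) from E16. Adult WT ileum had 6.94 and 5.70 CPM of Akp3, far under the E18 libraries, while its Alpi was 1850 and 1790 CPM. Adult and embryonic WT libraries differed in kit and strain, adult controls had received sunflower oil, and E18 was not limited to ileum, so stage cannot be told apart from these.

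Alppl2 was read in a few groups only. It had 0 counts in all E12, E14 and E16 WT libraries and reached 7.27 and 6.00 CPM at E18, at least 43.2-fold above the limit at E16 (edgeR adjusted p = 2.6e-04). In adult WT ileum it was 4.83 and 6.96 CPM. It was 10.1 and 8.66 CPM in the libraries labelled deleted at E13 (at least 61.1-fold above WT E16, adjusted p = 2.1e-04). It had 0 counts in both adult libraries labelled Cdx2-/- (at least 18.2-fold lower than adult WT, adjusted p = 0.00641), where Akp3 was higher than in WT. With the E15 label Alppl2 was 1.77 and 2.01 CPM and did not pass the test (log2 -1.79 ± 0.74, edgeR adjusted p = 0.113).

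Within a library the ratio of the paralogs does not depend on depth, and its change between libraries does not depend on length. Akp3 had 0.0894 and 0.0976 counts per 100 of Alpi in the E16 small intestine libraries (95% exact counting intervals 0.0462 to 0.156 and 0.0487 to 0.175). At E18 the ratio was 7.14 and 7.02. In adult WT ileum it was 0.374 and 0.319. Replicates lay within each other's counting intervals in these 3 WT groups, and the groups lay far apart.

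**Figure D2:**
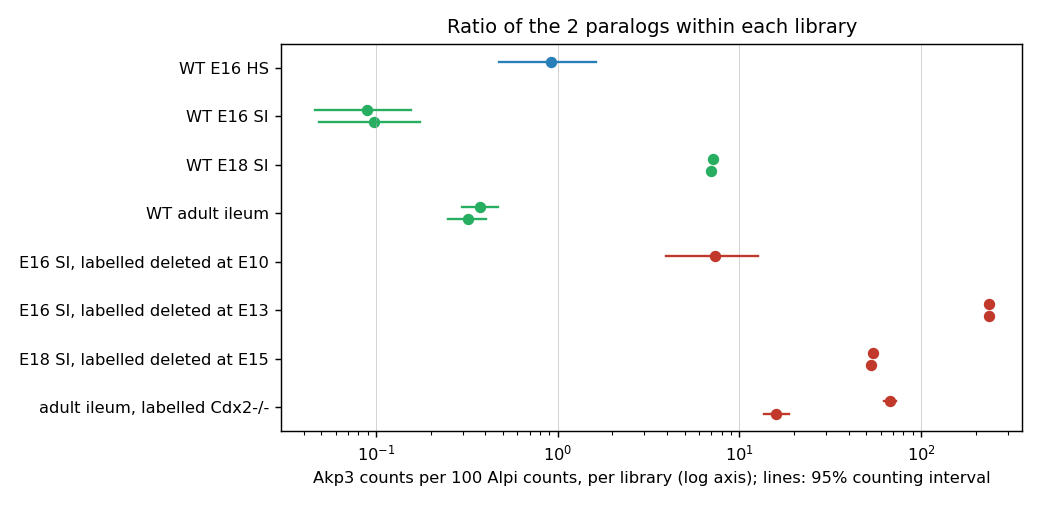
Akp3 counts per 100 Alpi counts (log axis) in each library with more than 3 Akp3 counts, by group. Points are libraries and lines the 95% exact counting interval; the ratio is 236 in both libraries labelled deleted at E13 and 0.0894 and 0.0976 in the WT E16 small intestine libraries.

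Alpl ran the other way, with higher levels at E12 and E14 than at E16. Forestomach had 111 and 106 CPM at E12, 92.5 and 99.1 at E14, and 10.5 and 17.5 at E16. Small intestine had 73.1 and 61.6 CPM at E12, 27.5 and 27.9 at E14, and 2.98 and 2.46 at E16. Only 0 and 3 counts were left at E18, a count ratio against E16 of 29.6 with an exact 95% interval of 9.87 to 146. Hindstomach had 35.1 and 16.7 CPM at E12, 26.8 and 25.2 at E14, and 7.0 and 7.64 at E16. From E12 to E14 the log2 fold change was -1.28 ± 0.31 (SE) in small intestine, -0.17 ± 0.30 in forestomach and 0.01 ± 0.30 in hindstomach, where the libraries overlapped. In every organ the E16 libraries lay below all E14 libraries. The log2 fold change from E14 to E16 was -3.33 ± 0.35 (SE) in small intestine, -2.78 ± 0.33 in forestomach and -1.83 ± 0.32 in hindstomach. Other cell type markers moved over the same step. In forestomach the epithelial markers summed to 3410 to 3510 CPM at E14 and 1430 to 1450 at E16, mesenchyme and muscle markers to 101 to 103 and 19500 to 24400, blood markers to 1.03 to 2.07 and 13400 to 18100, and immune markers to 2.72 to 5.01 and 519 to 698. In hindstomach and small intestine the epithelial sum was higher at E16 than at E14, as were the mesenchyme, blood and immune sums. The part of these cells in the fold changes was not tested. Of all genes, 11.9% were called lower in the small intestine over that step and 22.1% from E16 to E18.

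Between organs, Alpl was higher in forestomach than in hindstomach at E12 (log2 2.06 ± 0.31), E14 (1.88 ± 0.31) and E16 (0.92 ± 0.33), without overlap of libraries. With the E12 stomach labels exchanged, the sign at E12 would turn, since the libraries with high Gata4 had the more Alpl. Cdx2 in forestomach would then go from 131 CPM at E12 to 0 at E14 and 0.222 at E16. The squamous stomach markers run in the order of the E12 labels and the glandular ones do not, as given above. Whether the labels were exchanged was not tested. Small intestine and hindstomach were close at E14 (log2 0.09 ± 0.30), and at E16 small intestine was lower (log2 -1.42 ± 0.34, with 17.5% of all genes called lower). Mesenchyme markers were also much higher in the E16 stomach libraries, as given above, and their part in the E16 difference was not tested. Germ cell markers (Dppa3, Ddx4, Dazl, Pou5f1, Nanog) summed to 253 CPM in the E12 hindstomach library with 35.1 CPM of Alpl and to 28.5 CPM in the one with 16.7 CPM. They summed to 35.8 and 29.7 CPM in E12 small intestine and to 2.35 and 3.00 CPM in E12 forestomach, which had the most Alpl. Their part in the Alpl levels was not tested.

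**Figure D3:**
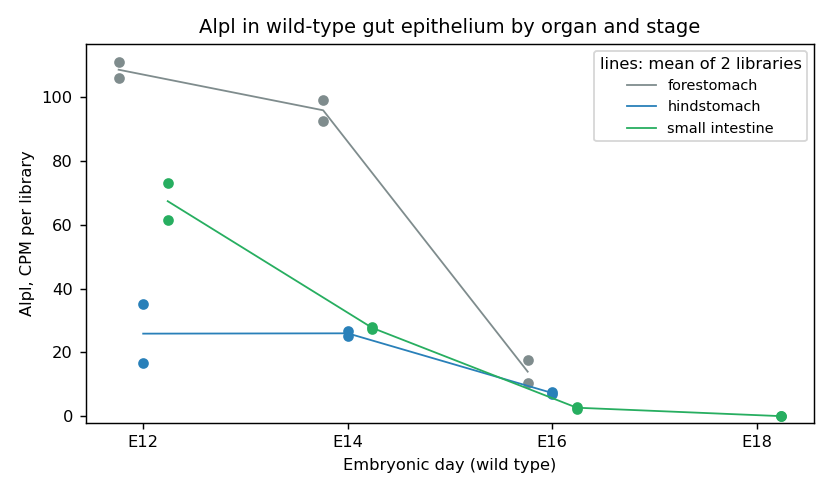
Alpl in CPM (linear axis) in WT forestomach, hindstomach and small intestine at E12, E14, E16 and, for small intestine, E18. Points are libraries and lines join the means of 2 libraries; libraries labelled forestomach stand at 111 and 106 CPM at E12 and at 10.5 and 17.5 CPM at E16. The E12 stomach points carry labels that Gata4 and Cdx2 go against, while the squamous stomach markers run in the order of the labels.

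Ordering the group means shows where neighbours differ. For Alpi the order from the top was the group labelled deleted at E13 (20300 ± 661 CPM, SD, n = 2), the group labelled deleted at E15 (4490 ± 128), WT E18 (3900 ± 107), adult WT (1820 ± 46.5), WT E16 small intestine (606 ± 40.5), adults labelled Cdx2-/- (116 ± 6.73), E16 hindstomach (56.0 ± 2.12), the group labelled deleted at E10 (18.9 ± 8.42, n = 3) and E14 small intestine (6.63 ± 0.884), and no 2 neighbours in that run overlapped. Below them came E14 hindstomach (1.08 ± 0.44), and the rest, which held at most 48 counts in a library. For Akp3 the groups above 10 CPM were those labelled deleted at E13 (47800 ± 1540) and E15 (2430 ± 116), WT E18 (276 ± 4.36) and adults labelled Cdx2-/- (47.4 ± 39.7), followed by adult WT (6.32 ± 0.877), without overlap between neighbours. For Alpl, E12 and E14 forestomach led (108 ± 3.64 and 95.8 ± 4.64), then E12 small intestine (67.3 ± 8.13). E14 small intestine (27.7), E14 hindstomach (26.0) and E12 hindstomach (25.9) differed by less than the SD of 13 in the last. E18, adult and E15-labelled groups held at most 3 counts of Alpl in any library.

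The first knockout comparison asks what loss of Cdx2 from the early endoderm does by E16. In the group labelled deleted at E10, Alpi stood at 12.3, 16.1 and 28.4 CPM against 634 and 577 CPM in WT E16, all 3 lower, with a log2 fold change of -5.07 ± 0.50 (SE). In this comparison 51.5% of genes were called, 27.6% lower and 23.9% higher. The Alpi level was also under that of WT E16 hindstomach (log2 -1.62 ± 0.46). Akp3 had 14, 1 and 0 counts against 12 and 11 and overlapped WT. Alpl was 11.4, 8.40 and 7.67 CPM against 2.98 and 2.46 CPM, higher in all 3 libraries by 1.72 ± 0.33 on the log2 scale, and close to the 7.0 and 7.64 CPM of E16 hindstomach (log2 0.30 ± 0.30). The glandular stomach markers Cldn18, Gkn1 and Gkn2, all 3 above 3 counts in each library, summed to 2570 to 7830 CPM in this group, 441 to 466 in E16 hindstomach and 2.10 to 2.88 in WT E16 small intestine. The squamous stomach markers summed to 39.8 to 220 CPM, 22.9 to 23.6 and 0 to 0.519 in the same order, with 3 of 3 called higher than WT. Mesenchyme and muscle markers were called lower than WT E16 in 8 of 10, summing to 149 to 204 CPM against 1310 to 1440 CPM. Also called lower were 2 of 2 blood, 4 of 4 neural and 2 of 3 endothelium markers tested. The epithelial markers summed to 13300 to 25400 CPM against 7170 to 7450 CPM, with 2 of 5 called higher and 1 lower. The part of these markers in the levels was not tested.

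Other brush border hydrolases were lower in the same group. Of 18 tested, 14 fell and 3 rose, 1 of the latter (Treh) on 1 to 3 counts per library, with a median log2 fold change of -2.74 against -0.10 over all genes tested, of which 27.6% fell and 23.9% rose. Of the enterocyte markers 2 of 5 fell and 0 rose, and of the goblet markers (Muc2, Tff3, Fcgbp) 3 of 3 fell; their part in the result was not tested. Naaladl1, a peptidase, fell by 6.83 ± 0.56 (SE) on the log2 scale (edgeR adjusted p = 2.4e-09) and Lct, the lactase of suckling animals, fell by 6.31 ± 0.32 (adjusted p = 1.3e-11). Mep1a, a meprin subunit, fell by 5.82 ± 0.87 (adjusted p = 1.1e-05). Tmprss15, which encodes enteropeptidase, rose from 0 counts in WT to between 0 and 65 counts (adjusted p = 2.8e-04), so not every library was above WT. Alpi had the fifth lowest value beside these hydrolases. In a fit of the 2 compared groups alone, 1 hydrolase rose and 14 fell.

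In the libraries labelled deleted at E13, Akp3 and Alpi were the most read genes of all. Akp3 was 46700 and 48900 CPM, 3.60% and 3.77% of all counts, and ranked 1 in both libraries by read count. Alpi was 19800 and 20700 CPM and ranked 2 in both. WT E16 small intestine had 0.567 and 0.563 CPM of Akp3 and 634 and 577 CPM of Alpi, so the log2 fold changes were 16.37 ± 0.71 (SE) and 5.08 ± 0.58. These libraries also exceeded WT E18, by 7.44 ± 0.50 for Akp3 and 2.38 ± 0.51 for Alpi. Alpl was 0.538 and 0.373 CPM, under both WT E16 libraries (log2 -2.55 ± 0.44). Mesenchyme and muscle markers were called lower in 10 of 10, summing to 57.4 to 59.4 CPM against 1310 to 1440 CPM in WT E16. Also called lower were 2 of 2 blood, 3 of 3 endothelium and 3 of 4 neural markers tested. Their part in the Alpl level was not tested. Of all genes, 39.5% were called against WT E16, 18.7% higher and 20.8% lower. This comparison shares its WT libraries with the previous one.

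Markers of the proximal intestine and of the glandular stomach stood far above WT E16 in these libraries. The 5 proximal intestine genes, all above 3 counts, summed to 8350 to 8500 CPM against 642 to 648 CPM in WT E16, and 4 of 5 rose (18.7% of all genes). Cybrd1, a duodenal ferric reductase, rose from 14.7 to 4430 CPM (log2 8.25 ± 0.60, edgeR adjusted p = 1.3e-09). Slc40a1, the iron exporter ferroportin, rose from 399 to 3090 CPM (log2 2.96 ± 0.15, adjusted p = 8.3e-12), and Pdx1, a factor of the duodenum and pancreas, from 4.80 to 113 CPM (log2 4.57 ± 0.48, adjusted p = 2.4e-07). The glandular stomach markers summed to 2030 to 2090 CPM, with all 3 above 3 counts, and the 4 ileal genes to 214 to 216 CPM against 202 to 217 in WT E16, with 1 of 4 called higher and a median log2 of 0.52. The goblet markers summed to 5990 to 6000 CPM against 1600 to 1880 CPM, with 2 of 3 called higher. The squamous stomach markers Krt5, Krt14 and Trp63 summed to 0.192 to 0.29 CPM against 0 to 0.519. The enterocyte markers summed to 14200 to 14300 CPM against 9310 to 9710 CPM, with 2 of 5 called higher and 0 lower. The part of these markers in the Akp3 and Alpi levels was not tested, nor that of the lower mesenchyme, blood, endothelium and neural markers given above. Hydrolases went in both directions, with 7 of 18 higher and 5 lower and a median log2 of 0.78 (all genes: 18.7% higher, 20.8% lower, median -0.05). Treh, a trehalase, rose from 0 counts to 342 CPM, at least 2230-fold (adjusted p = 3.8e-11), and Mgam, a maltase-glucoamylase, from 93.4 to 1840 CPM (log2 4.32 ± 0.55, adjusted p = 2.0e-06), while Lct fell from 425 to 6.21 CPM (log2 -6.08 ± 0.37, adjusted p = 2.8e-10). DESeq2 called 6 higher and 3 lower. Of the 18 fold changes 16 were smaller than those of Alpi and Akp3, and the other 2, of Treh and Tmprss15, had 0 counts in WT and are known only as lower bounds.

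In the libraries labelled deleted at E15, the paralogs parted from the other hydrolases. Alpi was 4580 and 4400 CPM against 3820 and 3970 CPM in WT E18, both libraries higher, by 0.22 ± 0.49 (SE) on the log2 scale, less than its error. Akp3 was 2510 and 2340 CPM against 273 and 279 CPM (log2 3.15 ± 0.41). Of the other hydrolases 17 of 18 fell and 0 rose, with a median of -3.61 against 0.00 over all genes, where 17.5% were called, 9.7% lower and 7.79% higher. Enpp7, an alkaline sphingomyelinase of the brush border, fell by 11.14 ± 0.59 on the log2 scale (edgeR adjusted p = 4.4e-07). Lct fell from 4590 to 25.2 CPM (log2 -7.49 ± 0.39, adjusted p = 2.1e-10) and Sis, sucrase-isomaltase, from 8600 to 104 CPM (log2 -6.35 ± 1.21, adjusted p = 0.00134). All 18 hydrolases, whose values ran from -11.14 to -1.04, lay below Alpi. Over every alternative and left-out library, 14 to 18 hydrolases were called lower. The enterocyte markers summed to 26000 to 27000 CPM against 48800 to 49500 CPM in WT E18, with 2 of 5 called lower and 0 higher. The proximal intestine genes summed to 777 to 790 CPM against 368 to 375 in WT E18, with 3 of 5 higher, and the ileal genes to 49.7 to 52.2 against 475 to 485, with 2 of 4 lower. The glandular stomach markers summed to 24 to 25.4 CPM against 0.0765 to 0.256 CPM, with 3 of 3 called higher. The 5 immune markers summed to 7.69 to 8.41 CPM against 220 to 226 CPM, with 2 of 5 called lower. The part of these markers in the result was not tested.

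In adult ileum the paralogs moved apart from each other. Alpi was 112 and 121 CPM in the libraries labelled Cdx2-/- and 1850 and 1790 CPM in WT, which is -4.09 ± 0.15 (SE) on the log2 scale. Akp3 was 75.5 and 19.4 CPM against 6.94 and 5.70 CPM, with both libraries above WT but 1 of them far above the other (log2 2.79 ± 0.68). Without the first library the log2 fold change of Akp3 was 1.54, and without the second 3.45. Of all genes (12444 tested), 20.4% were called, 8.41% higher and 12% lower. With both paralogs summed, the log2 fold change was -3.60. The other hydrolases fell in 13 of 17 tested and rose in 0 (median -3.15, all genes 0.01), among them Enpp7 (log2 -12.02 ± 0.40, edgeR adjusted p = 0.00072) and Dpep1, a dipeptidase (-8.60 ± 0.64, adjusted p = 0.00278). Ileal genes summed to 769 to 930 CPM against 5240 to 5670 CPM in WT, with 3 of 4 called lower, or 1 of 4 when either WT library was left out. Proximal genes summed to 112 to 125 CPM against 158 to 166 CPM, with 1 of 5 called higher, 1 called lower and a median log2 of 1.23, so that the sum and the median differ in sign. DESeq2 called 2 higher and 1 lower. Slc40a1 fell from 42.2 to 4.88 CPM (log2 -3.23 ± 0.30, adjusted p = 0.00407) and Pdx1 rose from 0.207 to 7.94 CPM (log2 5.05 ± 0.82, adjusted p = 0.0134), a call that no longer stood when either WT library was left out. The glandular stomach markers summed to 5.81 to 15.8 CPM against at most 0.176 CPM in WT, with 3 of 3 called higher, and the 5 immune markers to 5.93 to 7.54 CPM against 33.3 to 73.6 CPM, with 2 of 2 tested called lower. The neural marker Ret, named after its values were seen, rose from 10.9 to 422 CPM (log2 5.16 ± 0.47, adjusted p = 0.0039), while the neural marker Elavl4 held 0 counts in both WT libraries and at most 0.108 CPM in those labelled Cdx2-/-. The enterocyte markers summed to 48700 to 49100 CPM against 33800 to 38700 CPM in WT, with 2 of 5 called higher and 1 lower. The epithelial markers summed to 27100 to 28300 CPM against 11200 to 14400 CPM, with 2 of 5 called higher and 0 lower. The part of these markers in the adult result was not tested. Alpl held at most 2 counts in any adult library.

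**Figure D4:**
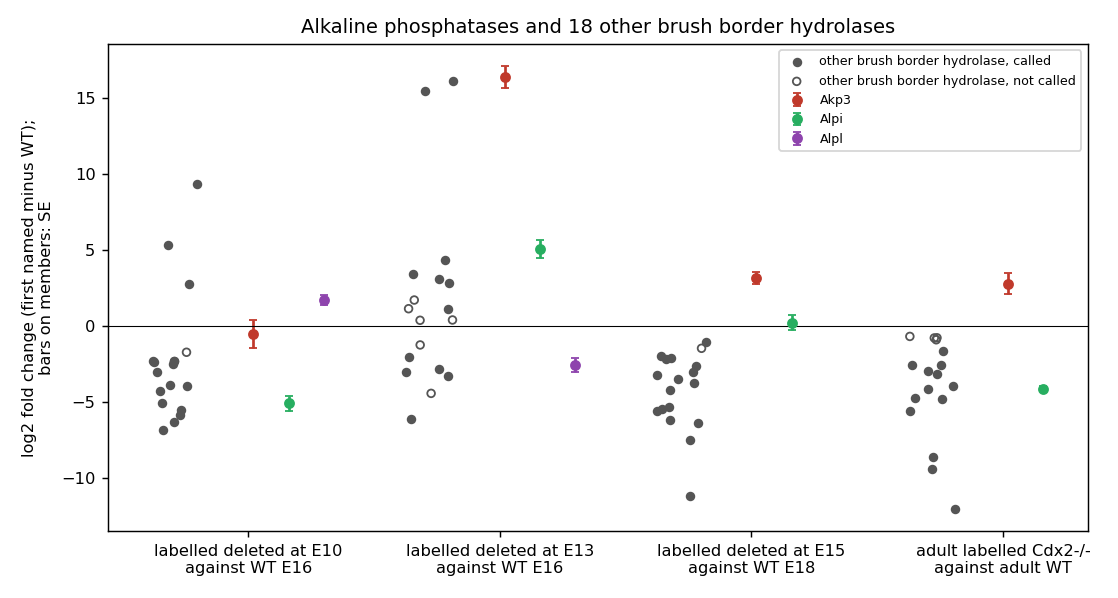
Log2 fold change against WT in 4 comparisons for Akp3 (red), Alpi (green), Alpl (purple) and other brush border hydrolases (grey, filled where called). WT shared the collection day or adult tissue only: embryonic WT differed in strain, and adult WT had sunflower oil and no Villin-Cre. Bars on the members are SE and each grey point is a gene; with the E15 label all 18 hydrolases lie below Alpi at 0.22 and Akp3 at 3.15, Alpl is left out where both groups were at the limit, and the topmost grey points at E10 and E13 are genes with 0 counts in WT, whose fitted values are no bounds.

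The paralog ratio was raised in every group labelled Cdx2-deleted in which Akp3 could be read. It was 236 Akp3 counts per 100 of Alpi in both libraries labelled deleted at E13 and 54.7 and 53.3 in those labelled deleted at E15, against 7.14 and 7.02 in WT E18. In adults labelled Cdx2-/- it was 67.7 and 16, against 0.374 and 0.319 in WT, so the adult replicates differed by more than counting error (intervals 62.8 to 72.9 and 13.6 to 18.8). In 1 library labelled deleted at E10 it was 7.33 (3.93 to 12.6), and the other 2 had 1 and 0 counts of Akp3. Together the 2 paralogs took 5.13% and 5.37% of all counts in the libraries labelled deleted at E13, 0.613% and 0.586% in those labelled deleted at E15, 0.306% and 0.315% in WT E18, and 0.0734% and 0.0676% in WT E16. In adults labelled Cdx2-/- the share was 0.0126% and 0.00882%, under the 0.131% and 0.132% of adult WT, and with the E10 label it was 0.000891%, 0.00091% and 0.00185%.

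For 10 factors known from work on intestinal alkaline phosphatase genes, counts are given beside the share over all genes. From E14 to E16 in small intestine 3 of 10 rose and 0 fell (13.7% and 11.9% of all genes). Cdx1 rose from 10.9 to 293 CPM (log2 4.76 ± 0.60, edgeR adjusted p = 5.9e-06) and Hnf4g, an enterocyte nuclear receptor, from 62.6 to 276 CPM (log2 2.16 ± 0.32, adjusted p = 2.5e-05). With the E10 label 7 of 10 fell and 1 rose (27.6% and 23.9% of all genes). Hnf4a fell from 346 to 29.6 CPM (log2 -3.61 ± 0.33, adjusted p = 1.0e-08) and Cdx1 from 293 to 4.91 CPM (log2 -6.06 ± 0.56, adjusted p = 2.4e-08). From E16 to E18, 2 of 10 rose and 1 fell (20.1% and 22.1% of all genes). Klf4, a zinc-finger factor of differentiated epithelium, rose (31.8 to 385 CPM, log2 3.61 ± 0.21, adjusted p = 9.4e-11). Cdx1 fell from 293 to 85.7 CPM (log2 -1.76 ± 0.53, adjusted p = 0.00833). With the E13 label 1 of 10 rose and 1 fell (18.7% and 20.8% of all genes), again Klf4 (345 CPM, log2 3.45 ± 0.21 against WT E16, adjusted p = 1.6e-10) and Cdx1 (96.1 CPM, log2 -1.59 ± 0.52, adjusted p = 0.0158). Cdx1 was not called at E18 without either E18 library, nor with the E13 label without either library of that label or the first WT E16 library, and DESeq2 called it in neither comparison. The 5 groups with the most Klf4 were also the 5 with the most Akp3, in another order, with Klf4 highest in adult WT ileum (864 ± 236 CPM, SD, n = 2). The same 5 groups had the most Hnf4a, also highest in adult WT ileum (1660 ± 331 CPM), so this overlap was not particular to Klf4. With the E15 label Klf4 was 307 CPM against 385 CPM in WT E18 (log2 -0.31 ± 0.19, adjusted p = 0.25). With the E15 label 1 of 10 factors passed both the adjusted p and the fold minimum (all genes: 9.7% lower and 7.79% higher), Hnf4g (479 to 209 CPM, log2 -1.18 ± 0.31, adjusted p = 0.00603), and in adults 1 of 10 (all genes: 12% lower and 8.41% higher), also Hnf4g (615 to 83.5 CPM, log2 -3.0 ± 0.37, adjusted p = 0.00682). Cdx2, which is on the list, was higher in both comparisons by adjusted p, as given above, but under the fold minimum, and 5 of 10 factors in each had an unadjusted p under 0.05. The E15 call of Hnf4g was lost without the first library of the group labelled deleted at E15, and the adult call without the first library labelled Cdx2-/-.

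The genes that build and attach the GPI anchor, which alkaline phosphatases need to reach the membrane, mostly did not pass the test while Alpi climbed. In edgeR's test 0 of 27 changed from E14 to E16 and 0 of 27 between E16 small intestine and hindstomach (all genes: 25.6% and 25.7% called), with 7 and 7 at an unadjusted p under 0.05. DESeq2 called 2 and 0, and edgeR fits of the compared groups alone 3 and 2, all higher in the E16 small intestine. From E16 to E18, 2 rose and 2 fell (all genes: 20.1% and 22.1%), among them Pigt, a transamidase subunit, from 25.3 to 145 CPM (log2 2.53 ± 0.35, adjusted p = 5.2e-06). With the E13 label 4 rose and 1 fell (all genes: 18.7% and 20.8%), Pigt again among the former (218 CPM, log2 3.12 ± 0.36 against WT E16, adjusted p = 5.3e-07). With the E10 label 8 rose and 9 fell, near the shares over all genes (23.9% and 27.6%), with a median of 0.01.

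Genes for phosphate, pyrophosphate and nucleotides changed in both directions, and several counts were near the share over all genes. From E14 to E16, 5 of 13 rose and 1 fell (all genes: 13.7% and 11.9%), and Slc34a2, the sodium-phosphate cotransporter of the intestine, rose from 0.878 to 89.6 CPM (log2 6.70 ± 1.56, edgeR adjusted p = 0.00309). From E16 to E18, 6 of 13 rose and 3 fell (all genes: 20.1% and 22.1%), and 0 or 1 fell when any 1 of the 4 libraries was left out. Slc34a2 fell over this step, from 89.6 to 5.70 CPM (log2 -3.97 ± 1.37, adjusted p = 0.0225). Nt5e, the ectonucleotidase that turns AMP into adenosine and phosphate, rose from 2.51 to 45.9 CPM (log2 4.20 ± 1.23, adjusted p = 0.00708). With the E10 label 10 of 13 fell and 0 rose (all genes: 27.6% and 23.9%), Slc34a2 among them (1.40 CPM, log2 -6.23 ± 1.32, adjusted p = 0.00072). Its counts in that group were 0, 0 and 35, so this mean and the size of the fold rest on 1 library. With the E13 label 7 rose and 3 fell (all genes: 18.7% and 20.8%), and without the first WT E16 library 4 rose. Slc34a2 was among those that fell, to 0.34 CPM (log2 -8.01 ± 1.70, adjusted p = 0.0010). With the E15 label 7 fell and 1 rose (all genes: 9.7% and 7.79%), but 2 or 3 fell when any 1 of the 4 libraries was left out. In adults 4 of 12 fell and 1 rose (all genes: 12% and 8.41%), and without the first library labelled Cdx2-/- 2 fell. Slc34a2 fell there from 947 to 106 CPM (log2 -3.28 ± 0.23, adjusted p = 0.00248). Enpp1, which makes the pyrophosphate that Alpl splits, rose in adults from 11.6 to 94.6 CPM (log2 2.91 ± 0.31, adjusted p = 0.00523). Of the vitamin B6 genes, Pdxk, the pyridoxal kinase, rose from E14 to E16 (25.4 to 135 CPM, log2 2.43 ± 0.38, adjusted p = 5.6e-05), while Pdxp, a pyridoxal phosphate phosphatase, fell (29.8 to 12.1 CPM, log2 -1.28 ± 0.32, adjusted p = 0.00353), the latter not without the first WT E16 library.

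The genes whose group means followed each phosphatase most closely were listed by Pearson's r over the 15 groups, among 11083 genes, as a description. For Akp3 these were Cyp2c29 (0.972), Syna (0.969), Tsku (0.948), Hsd17b6 (0.933) and Rdh7 (0.931), of which the first 4 peaked, like Akp3, in the group labelled deleted at E13. For Alpi they were Ugt2a3 (0.978), Ptpn18 (0.959), Prap1 (0.959), Nlrp6 (0.958) and Slc26a3 (0.954). For Alpl they were Klc3 (0.981), Zc4h2 (0.976), Rcan2 (0.973), Mmp11 (0.973) and Igf2bp1 (0.972), each highest in a group at E12. The groups differ in strain, stage and preparation, which the correlations carry along. The lists depend on the measure, since by Spearman's rho 0 of the 5 genes for Akp3, 2 for Alpi and 1 for Alpl stayed among the 5 most alike. Over the same groups the Pearson correlation was 0.82 between Akp3 and Alpi, -0.67 between Akp3 and Alpl, and -0.79 between Alpi and Alpl.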

How the data were processed

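Gene counts of 31 RNA libraries were taken from the table of raw read counts that the authors deposited. Per the submitters' processing notes, the series used STAR 2.5.3a, HTSeq, Bowtie2 and MACS2 with the mm9 build, with no role given. Per the labels' protocols, reads were 75 bp single-end, with SMARTer-Seq v4 kits for embryos and TruSeq V2 for adults. Strand setting, annotation and treatment of reads with several matches are not given in the sources used here. Each adult column had 2 blank cells, which were closed up; the 3 rows described here lie above the first. The table has 2 further columns, whose names read adult duodenum with Cdx2 knockout; they match no sample used here and were not used.

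The count test was edgeR 4.0.16 (R 4.3.3) quasi-likelihood with TMM scaling, a filter on low counts (filterByExpr, minimum count 10), group as the only term and Benjamini-Hochberg adjustment over all genes, fitted on 27 embryonic libraries (17239 genes) and separately on 4 adult libraries (12444 genes). A gene was called at an adjusted p under 0.05 and an absolute log2 fold change of at least 1, and every adjusted p in the text comes from this test unless DESeq2 (1.42.0) is named. CPM levels used one TMM scaling over all 31 libraries. The fits were tested on simulated data. No replicate files were identical.

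The 3 genes, the gene lists and the tests were chosen with earlier results of these data known. Named genes were the 3 phosphatases, Alppl2, Cdx2, the 5 genes most alike to each phosphatase (group mean of at least 5 on the log2 CPM scale, prior count 2), and from each list at most 4 called genes with the largest change, plus Klf4, Hnf4a, Enpp1, Nt5e and Slc34a2; marker lists were given as sums. Of the list genes, 1 was not in the table. Alternatives were other scalings, DESeq2, no filter, no fold minimum, fits of the compared groups alone, a replicate block, both paralogs summed, and each library left out.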

Additional observations from a re-analysis of the deposited data

Results flagged for a closer look

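Libraries labelled Cdx2-deleted lay on opposite sides of their WT libraries for Alpi in different comparisons, which differ in Cre driver, tamoxifen and time of deletion. Every library labelled deleted at E10 lay below WT E16 (log2 fold change -5.07 ± 0.50 SE) and every library labelled deleted at E13 lay above it (5.08 ± 0.58), both collected at E16 and set against the same WT libraries. Every library labelled deleted at E15 lay above WT E18 (0.22 ± 0.49) and every adult library labelled Cdx2-/- below adult WT (-4.09 ± 0.15). Alpl was above WT E16 in all libraries labelled deleted at E10 (1.72 ± 0.33) and below it in those labelled deleted at E13 (-2.55 ± 0.44). In both groups mesenchyme and muscle markers were below WT E16, as given above, and their part was not tested. These differences between comparisons were not tested.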

How the results depend on the processing

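The number of genes called moved by more than 1.5 times where the fold minimum was dropped, from 4415 to 7029 (E14 to E16), from 4422 to 6657 (E16 small intestine against hindstomach), from 3015 to 5239 (E15 label) and from 2544 to 4298 (adult). Leaving out 1 library at a time gave 1254 to 2055 called genes in adults, lowest without the first library labelled Cdx2-/-. Of the phosphatases, 17 log2 fold changes in the 7 tested comparisons were refitted, and these kept their direction under other scalings, DESeq2, no filter and separate fits; other fold changes given were not refitted. An exception arose for Akp3 with the E10 label (-0.51). It went from -3.46 to 0.05 as libraries were left out, turning to 0.05 without the second library of that group. In adults the 2 paralogs summed gave -3.60, which is a value of the sum and not of Akp3 (2.79). Summed, the paralogs gave 6.82 with the E13 label, 0.74 with the E15 label and 2.79 from E16 to E18. A scaling by relative log expression moved the median of all genes by 0.11 from E14 to E16. Groups share replicate numbers that no label calls a pairing. Same-numbered libraries deviated together with correlations from -0.31 to 0.10, and the replicate block gave 4434, 7254, 4453, 8879, 6784, 3071 and 2340 called genes in the 7 comparisons against 4415, 7260, 4422, 8875, 6807, 3015 and 2544 without it. Chosen after seeing the data, a fit without the libraries labelled deleted at E13 left Alpi at 6.52, 2.70, 3.44, -5.07 and 0.22 in the other 5 embryonic comparisons. Depth limits Akp3 before E18 and Alpl from E18 on, where libraries hold few counts.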
